A study of Mus musculus with 3 samples.

Results

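A set of 8 genes of germ cell RNA regulation was followed in gonads of male mouse embryos that lack Cyp26b1, a cytochrome P450 enzyme that breaks down retinoic acid. The genes were chosen by name, with earlier results of these data known: Ddx4, Dazl, Dnd1, Nanos3, Tdrd6, Tdrd7, Rnf17 and Stk31. All their probes were taken by RefSeq accession. Of the 8 genes, 7 had a probe, with 8 probes in all (2 for Dazl) among 41153 probes measured on every array and 16354 genes named. Rnf17, a tudor domain and ring finger protein of germ cell granules, was matched to no probe and is not described further. Of the 7, 6 passed the filter on dim probes, which kept a probe whose 2 arrays of some stage were both well above background. Tdrd6 did not pass.

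Germ cells of the fetal gonad hold RNA and protein granules without a membrane, called nuage, around their nuclei. DDX4 (mouse VASA homologue), a DEAD-box RNA helicase, is the defining protein of these granules, and proteins with tudor domains bind methylated arginines of their partners there. DAZL, NANOS3 and DND1 bind messenger RNAs and set which of them are translated or degraded, and mice without DND1 or NANOS3 lose germ cells early. Several of the 8 genes are used as markers of germ cells.

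The samples were whole male gonads, genotype Cyp26b1-/-, mouse line MCH, taken at E12.5, E13.5 and E14.5 (embryonic day). Each stage had 2 1-colour Agilent arrays, which the series calls biological duplicates. All 3 groups carry the same knockout, so the comparisons are between stages of the knockout and say nothing of the gene's loss itself. Gonads of another genotype were not analysed here, and how many embryos went into each array is not given in the sources used here.

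On each of the 6 arrays between 65.9% and 70.8% of spots were well above background and 0 were saturated. The duplicates had Pearson r from 0.993 to 0.996 across genes, which are not independent replicates. The E12.5 pair was hybridised on one slide and the remaining 4 arrays on a second. Stage and slide cannot be told apart in any comparison with E12.5, whereas E13.5 and E14.5 share a slide. The Cyp26b1 probe gave a strong signal in these knockout gonads, with log2 values over the array's 75th percentile of 4.81 ± 0.17 on the E12.5 arrays, 4.21 ± 0.07 on those of E13.5 and 4.01 ± 0.32 on those of E14.5 (SD, n = 2 each), and fell by 0.80 ± 0.18 (SE) at E14.5 against E12.5 (limma, adjusted p = 0.0145). Where the probe lies relative to the deleted part is not known here, so it does not check the genotype. Of the germ cell identity genes that had a probe, 18 of 18 passed the filter, as did 13 of 13 Sertoli cell genes.

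Values below are log2 signals relative to the 75th percentile of the same array, so 0 is the signal at that percentile and 1 unit is a doubling. A change is one stage mean minus another, given ± SE from a limma fit of 2 arrays per stage, with p-values adjusted by Benjamini and Hochberg over all 13268 genes tested. A change was called at an adjusted p of 0.05.

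Promoter windows in RefSeq (GRCm38.p6, 250 bases before to 50 after a gene's start) are described for 5 of the 8 genes: Ddx4, Dazl, Nanos3, Stk31 (2 windows) and Tdrd7 (3 windows). Dnd1, Rnf17 and Tdrd6 are not covered, and statements on these windows do not extend to them. The windows of 4 genes are shown, because they set genes of different course side by side: Ddx4 and Stk31 rose, the probes of Dazl parted, and Nanos3 did not pass. Capitals mark CACGTG (an E-box) and GCGGGAA or its other strand TTCCCGC (the E2F letters), which among these genes stood in the Ddx4 window only.
Ddx4 (chr13:112652261-112652560, minus strand): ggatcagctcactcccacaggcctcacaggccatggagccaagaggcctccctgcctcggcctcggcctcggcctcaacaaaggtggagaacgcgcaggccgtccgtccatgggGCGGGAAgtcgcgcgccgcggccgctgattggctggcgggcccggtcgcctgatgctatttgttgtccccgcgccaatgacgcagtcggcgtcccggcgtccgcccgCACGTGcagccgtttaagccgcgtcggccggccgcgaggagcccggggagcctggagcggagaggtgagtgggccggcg
Stk31 (chr6:49395289-49395588, plus strand): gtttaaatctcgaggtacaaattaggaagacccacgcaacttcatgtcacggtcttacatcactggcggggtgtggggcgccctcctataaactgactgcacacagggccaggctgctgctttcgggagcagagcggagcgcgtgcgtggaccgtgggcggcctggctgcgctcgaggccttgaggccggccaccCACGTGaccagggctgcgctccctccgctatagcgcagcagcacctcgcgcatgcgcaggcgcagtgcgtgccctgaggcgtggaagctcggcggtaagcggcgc
Dazl (chr17:50293571-50293870, minus strand): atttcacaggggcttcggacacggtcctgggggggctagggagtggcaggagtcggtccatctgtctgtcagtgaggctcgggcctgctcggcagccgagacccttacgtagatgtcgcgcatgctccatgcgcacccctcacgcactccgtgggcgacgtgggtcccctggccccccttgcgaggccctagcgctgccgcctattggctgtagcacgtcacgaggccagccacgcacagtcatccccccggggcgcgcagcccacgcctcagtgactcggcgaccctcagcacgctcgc
Nanos3 (chr8:84176503-84176802, minus strand): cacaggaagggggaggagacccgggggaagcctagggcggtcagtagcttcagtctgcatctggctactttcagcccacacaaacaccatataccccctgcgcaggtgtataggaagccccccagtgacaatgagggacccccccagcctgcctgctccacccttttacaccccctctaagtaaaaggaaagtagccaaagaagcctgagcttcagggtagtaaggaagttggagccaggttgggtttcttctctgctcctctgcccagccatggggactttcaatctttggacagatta

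The E-box letters began at position -29 from the start of Ddx4 and -55 from that of Stk31, and 7.15% of the 32851 promoter windows of this length held them. The E2F letters began at position -136 of Ddx4, and 4.60% of all windows held them on either strand. The letters AGGTCA, a nuclear receptor half-site counted on both strands, were in 16.3% of all windows. Among the genes with a window described here they were only in 1 of the 3 windows of Tdrd7. The dinucleotide CG occurred 38 times in the window of Ddx4, 29 times in that of Stk31 and 28 times in that of Dazl, against a median of 7 over all windows. The Nanos3 window held it 3 times. The 3 windows of Tdrd7, which also rose, held it 4, 32 and 32 times and had no E-box letters. These matches describe the letters in the windows and show no binding.

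Ddx4 gave log2 signals of 2.87 and 2.90 on the E12.5 arrays, 3.95 and 3.86 on those of E13.5, and 4.0 and 3.86 on those of E14.5. Both E12.5 arrays were low and close together, and the 4 later arrays lay within a narrow band that did not overlap with them. Ddx4 was 2.03-fold higher at E13.5 than at E12.5 (1.02 ± 0.11, adjusted p = 0.00333) and 2.07-fold higher at E14.5 than at E12.5 (1.05 ± 0.11, adjusted p = 0.00144). Between E14.5 and E13.5 the difference was 0.02 ± 0.11 (adjusted p = 0.933), with a 95% interval from -0.24 to 0.29. In a bulk sample, a change in the number of germ cells and a change in RNA per germ cell cannot be told apart, and this holds for every gene below.

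Dazl was read by 2 probes that parted from each other. The brighter probe gave 2.43 and 2.89 on the E12.5 arrays, 3.56 and 3.63 on those of E13.5, and 3.65 and 3.34 on those of E14.5. Its E12.5 arrays were lower than all later ones, and the E13.5 and E14.5 arrays overlapped. The dimmer probe gave 1.67 and 2.09 on the E12.5 arrays, 1.95 and 1.76 on those of E13.5, and 1.70 and 1.49 on those of E14.5, with arrays of E12.5 overlapping those of either later stage.

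The brighter Dazl probe was higher by 0.94 ± 0.19 at E13.5 than at E12.5 (adjusted p = 0.0165) and by 0.84 ± 0.19 at E14.5 than at E12.5 (adjusted p = 0.0148). In a fit of single probes (28389 passed the filter), the dimmer probe was at -0.03 ± 0.18 (adjusted p = 0.93) and -0.29 ± 0.18 (adjusted p = 0.255) in those comparisons. Averaging both probes ended the first call (adjusted p = 0.102), as did leaving out E12.5 replicate 1 (0.0566), E13.5 replicate 1 (0.0598) or E13.5 replicate 2 (0.0808). Averaging both probes also ended the second call (0.25), as did leaving out E12.5 replicate 1 (0.0522) or E14.5 replicate 1 (0.0634). No direction is read for Dazl as a gene.

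The log2 gap between the 2 Dazl probes was 0.76 and 0.79 on the E12.5 arrays, 1.61 and 1.87 on the E13.5 arrays, and 1.95 and 1.85 on the E14.5 arrays. Both E12.5 arrays had a narrower gap than all 4 later arrays, and the E13.5 and E14.5 arrays overlapped. The same kind of gap, between the brightest and the next probe, was fitted for all 4426 genes with several probes past the filter. For Dazl it was wider by 0.96 ± 0.11 at E13.5 (adjusted p = 0.011) and by 1.13 ± 0.11 at E14.5 (adjusted p = 0.00853), each against E12.5. Of the 4426 genes 24.2% and 26.2% passed in these comparisons, so unequal probes were common. Which transcripts each probe reads is not known here.

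Dnd1, whose protein works with NANOS proteins on messenger RNAs, gave 2.26 and 2.20 on the E12.5 arrays, 2.43 and 2.02 on those of E13.5, and 1.75 and 1.45 on those of E14.5. Both E14.5 arrays were below all 4 earlier ones, and the E13.5 arrays lay on either side of the E12.5 pair. Dnd1 fell by 0.63 ± 0.18 at E14.5 against E12.5 (adjusted p = 0.0307) and was at -0.62 ± 0.18 at E14.5 against E13.5 (adjusted p = 0.174). Between E13.5 and E12.5 it was at -0.01 ± 0.18 (adjusted p = 0.972). The call between E14.5 and E12.5 ended on leaving out E12.5 replicate 1 (adjusted p = 0.108), E12.5 replicate 2 (0.0866) or E14.5 replicate 2 (0.135), and with no filter on dim probes (0.0608).

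Nanos3, which protects migrating germ cells from cell death, gave -2.17 and -1.71 on the E12.5 arrays, -2.04 and -2.31 on those of E13.5, and -2.32 and -2.42 on those of E14.5. Its signal was dimmer than the 75th percentile but well above background on all 6 arrays. Both E14.5 arrays were below the other 4, by little at E13.5. No change passed: Nanos3 was at -0.42 ± 0.19 at E14.5 against E12.5 (adjusted p = 0.108, 95% interval -0.88 to 0.03) and at -0.23 ± 0.19 at E13.5 against E12.5 (adjusted p = 0.368). The E12.5 arrays decided the size of the difference between E14.5 and E12.5: it was -0.19 (adjusted p = 0.401) once E12.5 replicate 2 was left out, and -0.66 (adjusted p = 0.0385) once E12.5 replicate 1 was.

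Tdrd7, a tudor domain protein that takes part in the remodelling of germ cell granules in mouse testis, gave 1.35 and 1.29 on the E12.5 arrays, 2.09 and 2.33 on those of E13.5, and 2.63 and 2.67 on those of E14.5. The 3 stages followed each other without overlap. Among all genes 40.2% were higher without overlap at E13.5 against E12.5, and 26.4% at E14.5 against E13.5. The share of genes so ordered over all 3 stages was not computed. Tdrd7 was 1.85-fold higher at E13.5 than at E12.5 (0.89 ± 0.12, adjusted p = 0.00583) and 2.51-fold higher at E14.5 than at E12.5 (1.33 ± 0.12, adjusted p = 0.00102). Between E14.5 and E13.5, within 1 slide, it was at 0.44 ± 0.12 with an unadjusted p of 0.0115, and it did not pass over all genes (adjusted p = 0.166).

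Stk31, a protein with a tudor domain and a kinase-like domain found in germ cells, gave 0.51 and 0.89 on the E12.5 arrays, 1.53 and 1.70 on those of E13.5, and 1.80 and 1.90 on those of E14.5. Its stages also followed each other without overlap, with the widest spread at E12.5. Stk31 was 1.88-fold higher at E13.5 than at E12.5 (0.91 ± 0.16, adjusted p = 0.0103) and 2.22-fold higher at E14.5 than at E12.5 (1.15 ± 0.16, adjusted p = 0.00312). It was at 0.23 ± 0.16 at E14.5 against E13.5 (adjusted p = 0.467). The call between E13.5 and E12.5 ended on leaving out E13.5 replicate 2 (0.83, adjusted p = 0.063).

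Tdrd6, a large protein with several tudor domains that is needed for the chromatoid body of mouse spermatids, gave -6.79 and -7.31 on the E12.5 arrays, -6.37 and -6.47 on those of E13.5, and -5.75 and -6.75 on those of E14.5. It was well above background on 0 of 2 arrays at E12.5, 1 of 2 at E13.5 and 1 of 2 at E14.5. No fold is given, and Tdrd6 was left out of the main test. With no filter on dim probes it entered the fit and did not pass in any of the 3 comparisons.

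**Figure D1:**
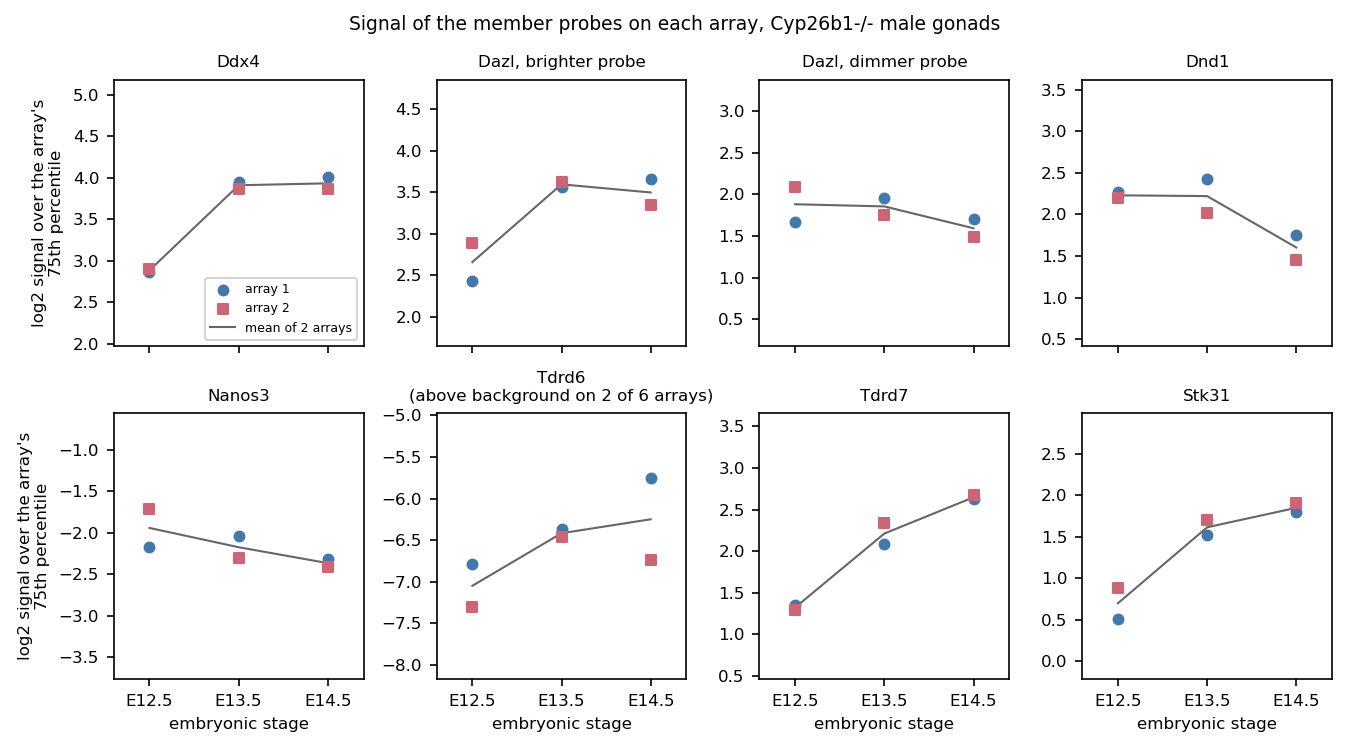
Log2 signal over the array's 75th percentile (vertical axis, 3.2 units in each panel, at different levels) at E12.5, E13.5 and E14.5 (horizontal axis) for the 8 probes of 7 genes. Points are the 2 arrays of a stage and lines join their means; Ddx4, Tdrd7 and Stk31 are higher on all 4 later arrays than on both E12.5 arrays, the 2 Dazl probes part, and Dnd1 is lowest at E14.5.

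Between E14.5 and E12.5, 4 of the 6 genes tested rose (Ddx4, Tdrd7, Stk31 and, on its brighter probe only, Dazl), 1 fell (Dnd1) and Nanos3 did not pass. Over all genes 25.6% rose and 20.8% fell in this comparison, and 46.3% changed either way. Between E13.5 and E12.5 the same 4 genes rose, Dazl again on its brighter probe only, and 0 fell. Among all genes 18.4% rose, 13.3% fell and 31.7% changed either way there. With the mean of all probes of a gene, 3 members rose in either comparison, without Dazl. Both comparisons share the E12.5 arrays. In the fit of single probes 40.2% of probes passed between E14.5 and E12.5, 27.4% between E13.5 and E12.5 and 0.00352% between E14.5 and E13.5. Groups of 2 arrays often did not overlap: this held for 75.4% of all genes between E14.5 and E12.5 (39.8% higher and 35.6% lower), 71.9% between E13.5 and E12.5 (40.2% and 31.6%) and 55.6% between E14.5 and E13.5 (26.4% and 29.1%). The median change of the 6 genes was 0.94 at E14.5 against E12.5, 0.90 at E13.5 against E12.5 and -0.04 at E14.5 against E13.5, where the medians of all genes were 0.03, 0.05 and -0.02. Dazl entered these medians by its brighter probe. Its dimmer probe, at -0.29 (E14.5 against E12.5) and -0.03 (E13.5 against E12.5), would lower them.

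Between E14.5 and E13.5, 0 of the 6 genes passed in limma, where 0.0528% of all genes did (0.0452% upward and 0.00754% downward). At an unadjusted p under 0.05 there were 2 of the 6 (Tdrd7 upward and Dnd1 downward) and 2439 of 13268 genes. With the 4 arrays of this slide alone 0 of all 13268 genes passed, so the 0 of the 6 there says nothing particular about the members.

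The step from E13.5 to E14.5 was set against the step from E12.5 to E13.5 in the same fit. The second step minus the first was -1.0 ± 0.19 for Ddx4 (adjusted p = 0.0785), -1.03 ± 0.33 for the brighter Dazl probe (0.164), -0.68 ± 0.27 for Stk31 (0.227) and -0.45 ± 0.21 for Tdrd7 (0.281). It was -0.61 ± 0.31 for Dnd1 (0.31) and 0.04 ± 0.32 for Nanos3 (0.953). Unadjusted p was 0.00184 for Ddx4, 0.0192 for Dazl and 0.0458 for Stk31. In limma 0 of the 6 passed after adjustment, where 0.445% of all genes did, so an unequal size of the steps was not shown for any of them.

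**Figure D2:**
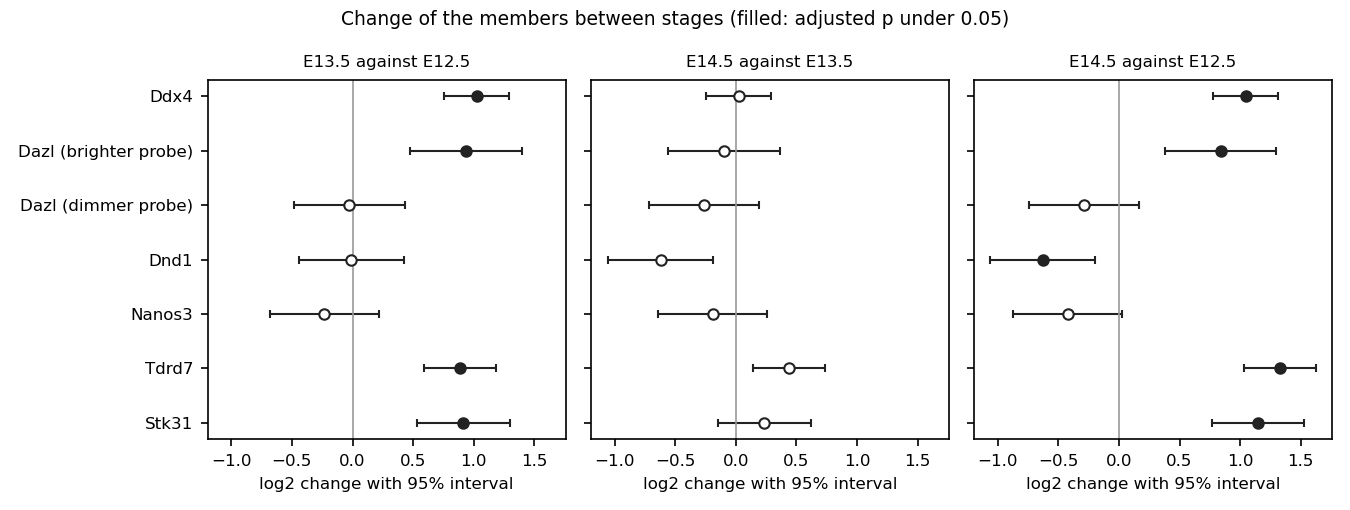
Log2 change between stage means with its 95% interval (horizontal axis) for 6 genes, Dazl by both probes (vertical axis), in 3 comparisons. Filled points passed an adjusted p of 0.05; the middle panel, within 1 slide, has none filled, and the dimmer Dazl probe and Nanos3 cross 0 in all panels.

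The genes with the most similar course were found by the root mean square difference over the 6 arrays, each gene centred on its own mean. Nearest to Ddx4 were Plcb4 (0.044), Fbxl18 (0.051) and Pcif1 (0.052), nearest to Tdrd7 were Ugt8a, Tmc7 and Lctl (0.041 to 0.048), and nearest to Stk31 were Fndc10, Tlcd1 and Map7d3 (0.035 to 0.071). Nearest to Dnd1 were Esrp2, Mybl2 and Dkc1 (0.053 to 0.075), and nearest to the brighter Dazl probe Plk5, Fkbp3 and Hoxc8 (0.07 to 0.076). Among the members themselves, Tdrd7 and Stk31 were the closest pair (0.16) and Tdrd7 and Dnd1 the most distant (0.83).

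Other genes of germ cell granules and RNA binding rose more often than they fell. Their list was also chosen with earlier results of these data known, so its counts are a description only. Of 28 such genes listed, 21 had a probe and were tested, and 18 of these were well above background on all 6 arrays. In a fit of genes detected on all 6 arrays, 12 of the 18 rose between E14.5 and E12.5 and 1 fell, with a median change of 0.70. In the fit of all 21, 15 rose, 1 fell and 5 did not pass, with a median change of 0.79. Among all genes 25.6% rose and 20.8% fell, with a median of 0.03. The 15 include Nanos2, Piwil1 and Henmt1, which were well above background on 0 arrays at E12.5 and entered the test only through the later stages, so their direction was fixed by the filter. As a description, Nanos2, an RNA-binding protein of fetal male germ cells, was at least 7.16-fold higher at E14.5 than at E12.5, Piwil1, a PIWI protein, at least 4.29-fold, and Henmt1, an RNA methyltransferase of the piRNA pathway, at least 4.75-fold. The list's median was the same, 0.79, with these genes set at their bounds. Mov10l1, the RNA helicase of the piRNA pathway, rose by 2.77 ± 0.25 (adjusted p = 0.000926). Zar1, an RNA-binding protein of oocytes, fell by 2.86 ± 0.22 (0.000687). Between E13.5 and E12.5, 14 of the 21 rose, 1 fell (Zar1) and 6 did not pass (13 of 18 rose and 1 fell among genes detected on all 6 arrays), with 10 rises once E13.5 replicate 2 was left out. The shares of all genes between E13.5 and E12.5 were 18.4% upward and 13.3% downward. Between E14.5 and E13.5, 0 of the 21 passed in limma, against 6 at an unadjusted p under 0.05, where 2439 of all 13268 genes were.

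Germ cell identity genes gave 0 rises in the 3 comparisons. Among all genes 25.6% rose and 20.8% fell between E14.5 and E12.5, and 18.4% rose and 13.3% fell between E13.5 and E12.5. Of 18 tested between E14.5 and E12.5, 0 rose, 8 fell and 10 did not pass, with a median change of -0.71, and of -0.15 once E14.5 replicate 2 was left out (7 falls). Leaving out E12.5 replicate 2 left 5 falls. The largest falls were those of Tfap2c (-4.65 ± 0.29, adjusted p = 0.000519) and Prdm1 (-1.99 ± 0.21, 0.00154), transcription factors of early germ cells, of Tcl1 (-2.41 ± 0.51, 0.0125), and of Epcam, a cell adhesion gene (-1.91 ± 0.26, 0.00306). Pou5f1, a pluripotency factor, was at -0.15 ± 0.37 (0.76), and Dppa3, an early germ cell gene, at -0.01 ± 0.29 (0.972). Between E13.5 and E12.5, 3 fell (Tfap2c, Prdm1 and Kit) and 0 rose. Between E14.5 and E13.5, 0 of the 18 passed in limma, against 10 at an unadjusted p under 0.05, where 2439 of all 13268 genes were. This 0 depended on the setting. With normexp background correction 7 of the 18 fell (80 of all genes). With a trend and robust prior 2 fell (83 of all genes), and with median scaling 1 fell (21 of all genes). In the main fit the median change of the 18 was -0.83. That median was -0.37 once E14.5 replicate 2 was left out and -1.16 once E14.5 replicate 1 was.

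Widely expressed genes with tudor domains or in messenger RNA decay were the third list. The shares of all genes were 25.6% upward and 20.8% downward between E14.5 and E12.5. Between E13.5 and E12.5 they were 18.4% and 13.3%. Of 24 tested between E14.5 and E12.5, 1 rose (Edc4, 0.39 ± 0.11), 11 fell and 12 did not pass, with a median change of -0.37, and on leaving out E14.5 replicate 2, 0 rose and 4 fell, with a median of -0.20. Ddx3x, a DEAD-box helicase of most cells, was the largest fall (-1.17 ± 0.17, adjusted p = 0.00394), followed by Dicer1, Ago2 and Lsm14a (-0.70 to -0.60). Tdrd3, a tudor domain protein of most cells, was at 0.04 ± 0.12 (adjusted p = 0.818). Between E13.5 and E12.5, 1 of the 24 rose and 5 fell, and 0 fell once E12.5 replicate 1 or either E13.5 replicate was left out.

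**Figure D3:**
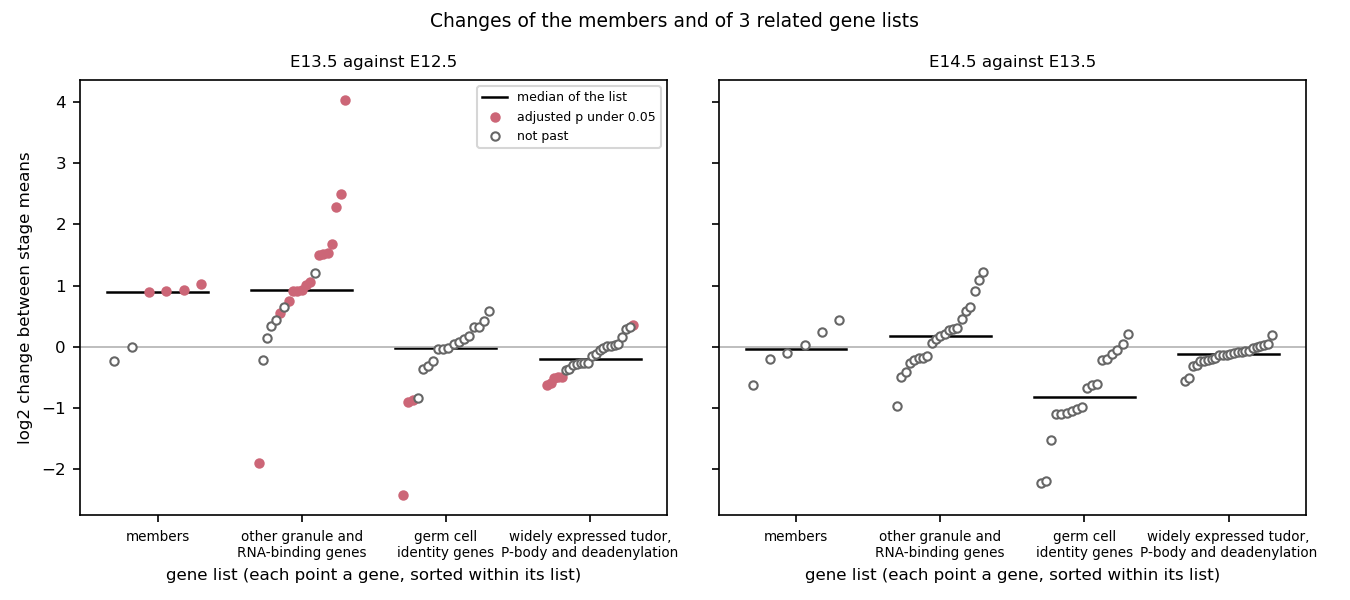
Log2 change between stage means (vertical axis) of each gene in 4 lists (horizontal axis): 6 members, 21 other granule and RNA-binding genes, 18 germ cell identity genes and 24 widely expressed genes, with bars at the list medians. Red points passed an adjusted p of 0.05; genes below background at 1 stage are drawn at their measured values, and in the right panel no point is red. Dazl is drawn by its brighter probe.

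Read as a gauge of germ cell content, the members gave no single value. Against E12.5, the E14.5 arrays were 2.07-fold higher by Ddx4, 2.22-fold by Stk31 and 2.51-fold by Tdrd7, but 0.65-fold by Dnd1 and, with no call, 0.75-fold by Nanos3, and by Dazl 1.79-fold or 0.82-fold depending on the probe. The summed linear signal of the 18 germ cell identity genes, in units of the array's 75th percentile, was 99.96 and 152 on the E12.5 arrays, 161 and 144 on those of E13.5, and 120 and 67.6 on those of E14.5. The E14.5 arrays lay on either side of the lower E12.5 array. Brighter genes weigh more in such a sum. The same sum over the 21 other granule genes was 39.6 and 42.7 on the E12.5 arrays, 89.2 and 90.7 on those of E13.5, and 92.6 and 91.1 on those of E14.5.

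Markers of other cells were read on the same arrays. The summed signal of 8 Leydig and steroidogenic genes was 5.32 and 7.89 on the E12.5 arrays, 58.6 and 67.8 on those of E13.5, and 116 and 155 on those of E14.5, and 7 of the 8 rose between E14.5 and E12.5. That of 13 Sertoli cell genes was 131 and 153 on the E12.5 arrays, 178 and 174 on those of E13.5, and 185 and 179 on those of E14.5 (4 rose and 2 fell). The median change of these 13 genes at E14.5 against E12.5 was 0.03, as over all genes, and 6 were below 0. The summed signal of 8 endothelial genes was 21.8 and 21.6 on the E12.5 arrays, 17.4 and 17.0 on those of E13.5, and 17.1 and 16.1 on those of E14.5 (0 rose and 4 fell). For 6 macrophage genes it was 1.77 to 2.13 at E12.5 and 3.86 to 4.35 at E14.5, for 8 interstitial genes 52.2 to 59.2 and 87.3 to 96.2, for 8 red blood cell genes 210 to 257 and 160 to 183, and for 8 pregranulosa genes 10.4 to 11.4 and 9.91 to 13.7. At E14.5 against E12.5, 4 of the 6 macrophage genes rose and 0 fell (median 0.63). Of the 8 interstitial genes 4 rose and 0 fell, and 4 were below 0 (median 0.46). Of 7 red blood cell genes tested 1 rose and 4 fell (median -2.10). Of 7 pregranulosa genes tested 1 rose and 2 fell (median -0.34). The part of these other cells in the members' changes was not tested.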

How the data were processed

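Per the labels, total RNA came from frozen gonads and 1 dye, Cy3, was used. Per the file headers, the deposited intensity values are processed signals of Agilent Feature Extraction 9.5, background-subtracted and detrended on each array but not scaled between arrays. The authors also deposited a table with a linear ratio for every probe at each stage, whose denominator is unknown here, with column medians of 0.963, 1.04 and 1.01. Its log2 differences had r = 1.0 with those of the scanner values across 25605 probes, so its direction is that of the stages, while its centring and reference stay unknown.

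Here, log2 of the processed signal minus the array's 75th percentile was used, without control and outlier spots, and repeated spots were averaged. Of 41174 probes 21 were left out because they were missing on an array. RefSeq accessions named 22943 probes, and the brightest probe stood for a gene. The filter left 13268 genes and 28389 probes. limma 3.58.1 in R 4.3.3 (lmFit and eBayes, with 3 residual degrees of freedom and a prior worth 3.01) was fitted on all 6 arrays, two-sided. It was tested on simulated data. A fold given as "at least" sets the mean of the brighter stage against the higher of the dim probe's own signal and the lowest signal that passed detection on that array. Lists are described by counts and medians, without a list test.

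The members, lists and rules were chosen with earlier results of these data known. The text names all members, up to 4 genes of each list with the largest called changes, and the 3 nearest courses of Ddx4 and of each member called between E14.5 and E12.5. Tdrd3, Pou5f1, Dppa3, Kit, Henmt1 and Edc4 were named after their values were seen. The contrast of the 2 steps, the fit of probe gaps and the repeats of list counts were added after the data were seen. Arrays with the same number were checked for pairing. Alternatives were other background correction, scaling, filters, priors, blocks and thresholds, the mean of probes, unnamed probes, 4 arrays, the authors' table and each array left out. The number of arrays limits the precision. Python 3.11.15 with pandas 2.3.3 and matplotlib 3.10.9 did the remaining steps.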

Additional observations from a re-analysis of the deposited data

How the results depend on the processing

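Each comparison was repeated under other settings, and a count is of calls at an adjusted p of 0.05. At E14.5 against E12.5 the rises of Ddx4 (0.90 to 1.24), Tdrd7 (1.18 to 1.37) and Stk31 (0.96 to 1.34) kept their call under every setting with a test. A 2-fold minimum left 1155 of 4203 genes, 1 member and 1 member probe at E13.5 against E12.5, and 1900 of 6146 genes, 3 members and 3 member probes at E14.5 against E12.5. At E14.5 against E13.5 the 7 genes called became 370 with normexp, 98 with median scaling, 346 with a trend and robust prior, 1 with unnamed probes added, and 0 with no filter, with detection on all 6 arrays, with the mean of probes or with the 4 arrays alone. With no filter 3 of 8 member probes passed at E14.5 against E12.5, against 5 of 7 with it, where 40.2% of all probes passed. The share of all probes with no filter is not given here. Among all genes 2883 rose and 2241 fell of 16354 with no filter, against 3390 and 2756 of 13268 with it. The replicate number as a block left 1 gene at E14.5 against E13.5. The numbers did not pair the arrays (correlations -0.04, -0.06 and 0.23). Leaving out 1 array gave 1405 to 3935 genes, 2 to 4 members and 1 to 4 member probes at E13.5 against E12.5, 0 to 42 genes at E14.5 against E13.5, and 3898 to 5349 genes and 3 to 5 member probes at E14.5 against E12.5. The lowest counts came without E13.5 replicate 2 (1405) and E14.5 replicate 2 (3898). Changes that missed the threshold turned sign: leaving out 1 array gave -0.21 to 0.19 for Dnd1, -0.46 to 0.00032 for Nanos3 and -0.24 to 0.19 for the dimmer Dazl probe at E13.5 against E12.5, and -0.049 to 0.095 for Ddx4 and -0.25 to 0.059 for Dazl and its brighter probe at E14.5 against E13.5. Ddx4 was there at -0.0079 with normexp and -0.063 with median scaling. Median scaling moved the median of all genes by -0.15 at E14.5 against E12.5, and 41.1% in place of 55.2% of the called genes were higher. The causes were not tested.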
